A study of Mus musculus with 16 samples.

Results

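Livers of alcohol-fed mice were compared with livers of control-fed mice, to ask which transcripts differ after an ethanol diet that produces fatty liver. The comparison took in every sample titled with the alcohol or the control liquid diet, which gave 4 alcohol and 4 control arrays, 8 of the study's 16. The alcohol mice were male C57BL/6 mice on the ethanol form of the Lieber-DeCarli diet, a complete liquid food in which ethanol supplies part of the calories. The control mice were male C57BL/6 mice pair-fed the ethanol-free form, so that intake was matched between the groups. Mice of both groups received 0.1 ml of olive oil by gavage every day for 4 weeks, the vehicle of the garlic compounds given to the study's other 8 mice. No gene was altered in any group, and the labels used here do not state the age of the mice. The labels call the 4 arrays of a group biological replicates.

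Ethanol is oxidised in hepatocytes by alcohol dehydrogenases and by the cytochrome P450 CYP2E1, and the acetaldehyde formed is cleared by aldehyde dehydrogenases. Drug-like compounds are handled by other P450s and by conjugating enzymes, among them the glutathione S-transferases, under the nuclear receptors CAR and PXR and the stress factor NRF2. Fatty acid oxidation is driven by PPARA, cholesterol synthesis by SREBP2, and the differences between male and female mouse liver by the pulses of growth hormone.

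Probes entered the test if at least 4 of the 8 arrays gave them a detection p below 0.05. This left 10938 of 25697 probes, and 7756 named genes, each read by its brightest passing probe. Arrays detected between 10631 and 11526 probes, and correlations were between 0.9746 and 0.993 within a group and between 0.971 and 0.984 across groups. All 13 hepatocyte markers on the array were detected on all 8 arrays, and their summed signal was 301900 to 326900 in alcohol livers and 317200 to 326100 in control livers. Both groups lay on 1 chip, with alcohol arrays on positions 5 to 8 and control arrays on positions 1 to 4, so position and diet cannot be told apart. Alcohol replicate 1 held pancreatic RNA: all 31 acinar markers on the array were detected there, 30 of them at least 1 log2 unit above every other array, with a median gap of 9.20 log2 units. Its acinar signal summed to 846400, against 2692 to 2979 on the other alcohol arrays and 3274 to 4198 on control arrays. Cholangiocyte markers (14270, against 411 to 525 in the other alcohol livers and 401 to 428 in control livers) and islet markers (1874, against at most 264 elsewhere) were also highest on that array. Counts are therefore given with and without it. The first principal component held 40.8% of the variance and separated the groups (-22.5 to -6.07 in alcohol livers and 13.5 to 18.2 in control livers). The acinar genes Cela3b, Cela2a and Amy2a5 carried large weights in it (-0.106, -0.0958 and -0.0846, against -0.163 for Gsta1). Alcohol replicate 1 lay at -22.5, and the components were not recomputed without that array.

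At an adjusted p under 0.05 (limma's moderated test, Benjamini-Hochberg over 7756 genes), 333 genes differed, which is 4.29% of those tested. Of these, 170 rose (2.19%) and 163 fell (2.1%), and 56 rose and 35 fell at least 2-fold. Called or not, 3736 genes were higher and 4020 lower in alcohol livers. Genes detected on all 4 alcohol arrays and on no control array passed the filter only through the alcohol group, and 15 of these 21 rose. The 4 genes with the reverse pattern all fell. The filter took part in setting these calls, and the shares of lists below include them. The alcohol and control values of 326 of the 333 did not overlap, against 1026 (13.2%) of all genes, 6.5% higher and 6.73% lower in alcohol livers. The count was 292 without alcohol replicate 1, and 235 of the 333 were among them. It was 625 without alcohol replicate 2, 158 without alcohol replicate 3, 347 without alcohol replicate 4, and 161, 147, 188 and 221 without control replicates 1, 2, 3 and 4. No called gene changed its sign in any of these fits. Expression varied more among the 4 alcohol arrays, whose SD was the larger for 5276 genes (68.0%). The median SD was 0.217 on the log2 scale, against 0.159 in control mice. Alcohol replicate 1, with its pancreatic RNA, is part of these SDs, which were not recomputed without it. Changes below are log2 values, alcohol minus control, ± SE with n = 4 in each group, and signals are normalized signals on a linear scale that holds an offset of 16. The P450s Cyp2b10, Cyp2b9 and Cyp2b13 and the transferases Gsta1 and Gsta2 were the largest rises among called genes, and Cyp7a1 of bile acid synthesis was the largest fall.

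**Figure D1:**
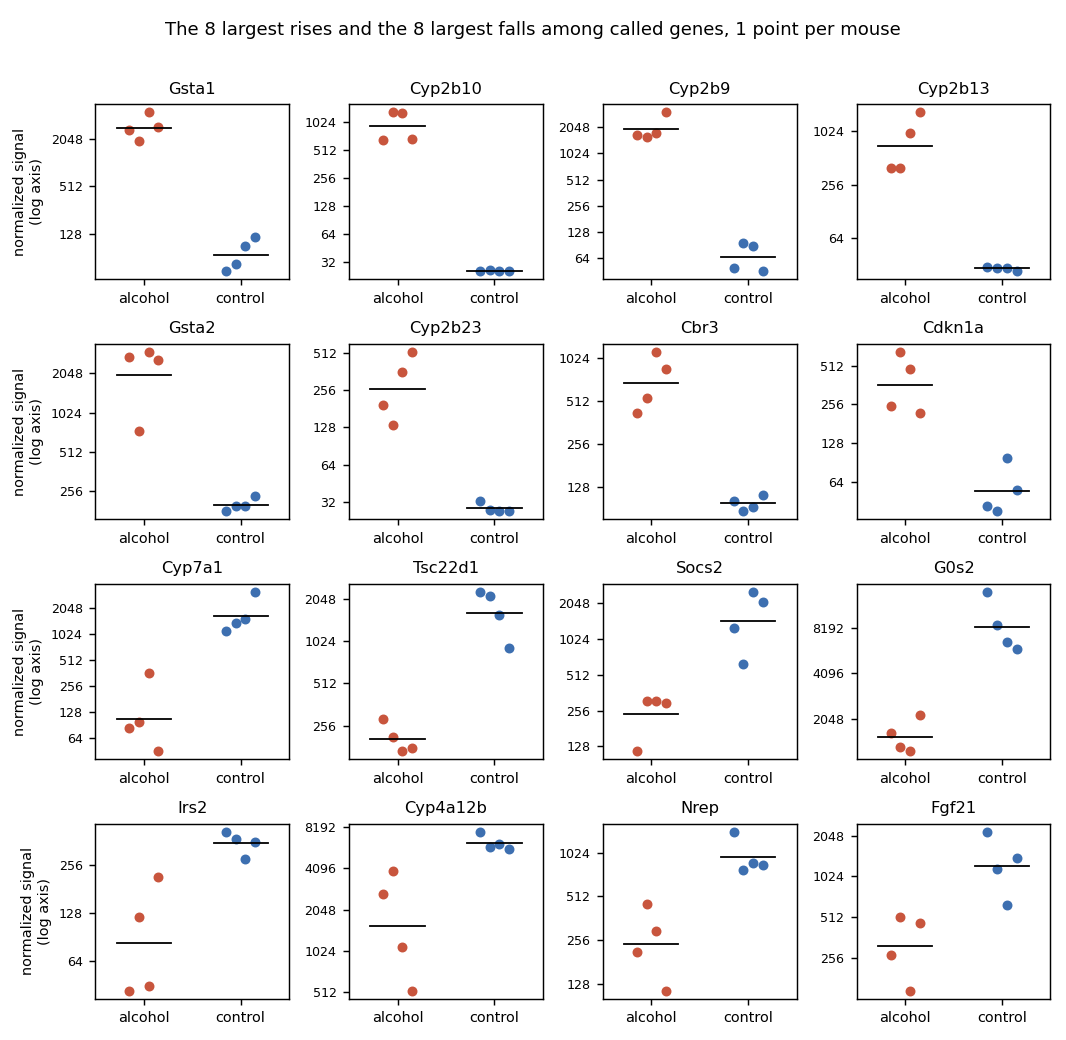
Normalized signal (log axis) of the 8 called genes with the largest rises (top 2 rows) and the 8 with the largest falls (bottom 2 rows), with 1 point per mouse, alcohol left and control right, and a line at the mean of log2 values. The 4 alcohol points and the 4 control points of each gene do not overlap, and alcohol points are the more scattered for genes such as Cyp7a1, Irs2 and Cyp4a12b.

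Many enzymes that metabolise foreign compounds rose. Of 21 tested P450s and other targets of CAR and PXR, 11 rose and none fell. That is 52.4% of the list, against 4.29% of all genes, with a median change of 0.69 against -0.01 over all genes. Cyp2b10, Cyp2b13 and Cyp2b23 are among the 11 and passed the filter only through the alcohol arrays. Without alcohol replicate 1, 10 rose and Cyp2c67, another P450 of the list, fell. Cyp2b10, the classical CAR target, had signals of 652, 1288, 1281 and 667 in alcohol livers and of 26.0, 26.2, 25.6 and 25.8 in control livers. No control array detected it, so that it was at least 17.7-fold higher in alcohol livers (adjusted p = 6.21e-07). Cyp2b13, a P450 that predominates in female mice, had 391, 394, 975 and 1681 in alcohol livers and 30.3, 29.5, 29.2 and 26.8 in control livers. It too was undetected on every control array and was at least 13.6-fold higher (adjusted p = 0.000198). Cyp2b9, its female-predominant relative, had 1665, 1555, 1757 and 2999 in alcohol livers and 49.3, 96.7, 88.2 and 45.7 in control livers, where 2 of 4 arrays detected it. Its change was 4.86 ± 0.28 (adjusted p = 5.71e-06). Alcohol replicate 4 had the highest level of Cyp2b9, Cyp2b13 and Cyp2b23 among the alcohol livers, and no alcohol value of these genes overlapped a control value. Cyp2b23 was at least 5.04-fold higher (adjusted p = 0.000474) and undetected on control arrays.

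The promoters of the Cyp2b genes show how alike these relatives are around their transcription starts. The windows below run from 250 bases before to 50 bases after the transcription start (RefSeq, GRCm38.p6, plus strand of chromosome 7). Capitals in Cyp2b9 (chr7:26173159-26173458) and Cyp2b13 (chr7:26061245-26061544) mark the bases at which these promoters differ from each other, and capitals in Cyp2b10 (chr7:25897408-25897707) mark its differences from Cyp2b9.
Cyp2b9: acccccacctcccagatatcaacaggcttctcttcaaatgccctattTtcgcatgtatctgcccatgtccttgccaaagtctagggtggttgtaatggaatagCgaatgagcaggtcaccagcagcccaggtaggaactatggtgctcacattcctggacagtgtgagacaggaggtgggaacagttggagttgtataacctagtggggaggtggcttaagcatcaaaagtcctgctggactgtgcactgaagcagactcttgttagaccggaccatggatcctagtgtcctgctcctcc
Cyp2b13: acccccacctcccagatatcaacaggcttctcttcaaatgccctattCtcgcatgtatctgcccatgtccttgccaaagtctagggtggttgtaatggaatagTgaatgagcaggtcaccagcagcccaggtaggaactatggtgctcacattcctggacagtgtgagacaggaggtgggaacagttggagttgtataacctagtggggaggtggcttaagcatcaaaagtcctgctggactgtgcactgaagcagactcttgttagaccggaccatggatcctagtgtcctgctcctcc
Cyp2b10: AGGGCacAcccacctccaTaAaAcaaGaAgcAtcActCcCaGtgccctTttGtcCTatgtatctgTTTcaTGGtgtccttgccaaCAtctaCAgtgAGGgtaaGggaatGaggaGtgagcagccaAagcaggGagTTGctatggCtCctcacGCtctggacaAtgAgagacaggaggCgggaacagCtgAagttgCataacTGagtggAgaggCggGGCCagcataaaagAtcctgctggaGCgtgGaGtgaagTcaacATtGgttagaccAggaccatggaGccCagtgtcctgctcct
Cyp2b9 and Cyp2b13 shared 298 of 300 aligned bases (99.3%), and Cyp2b10 and Cyp2b9 shared 229 of 314 (72.9%). These windows lie mostly before the transcription start, so they do not show how alike the transcripts are where probes bind. Probes of near-identical genes can read each other's transcripts, and transcript and probe sequences were not compared here. The rises of Cyp2b9 and Cyp2b13 may therefore not be separate measurements, which was not tested.

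Beyond the Cyp2b genes, Cyp3a11, a main PXR target that oxidises many drugs, had 8889, 6474, 9747 and 13120 in alcohol livers and 1708, 2334, 2943 and 1757 in control livers. It rose by 2.12 ± 0.23 (adjusted p = 0.000474), with every alcohol value above every control value. Cyp2a5, which hydroxylates coumarin and nicotine, had 20610, 17180, 33090 and 31020 in alcohol livers and 4581, 4711, 5742 and 9157 in control livers. Its change was 2.08 ± 0.26 (adjusted p = 0.00129), and its other 3 passing probes gave 2.24, 2.46 and 2.98. Smaller rises were those of Cyp2c29 (1.46 ± 0.24), the carboxylesterase Ces2a (0.76 ± 0.16), Cyp3a25 (0.74 ± 0.18) and Cyp3a13 (0.69 ± 0.12). Cyp3a25 passed no longer without alcohol replicate 1 (adjusted p = 0.0904). The receptors themselves did not pass: Nr1i3, which encodes CAR, changed by -0.48 ± 0.16 (adjusted p = 0.117), and Nr1i2, which encodes PXR, by 0.21 ± 0.12 (adjusted p = 0.36). Cyp1a2, a P450 under the dioxin receptor AHR, rose by 0.65 ± 0.11 (adjusted p = 0.00981). Over all 46 tested P450 genes 12 rose and 4 fell (34.8%, against 4.29% of all genes), with a median change of -0.01. Those that fell were Cyp7a1, Cyp8b1, Cyp2u1 and Cyp4a12b.

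**Figure D2:**
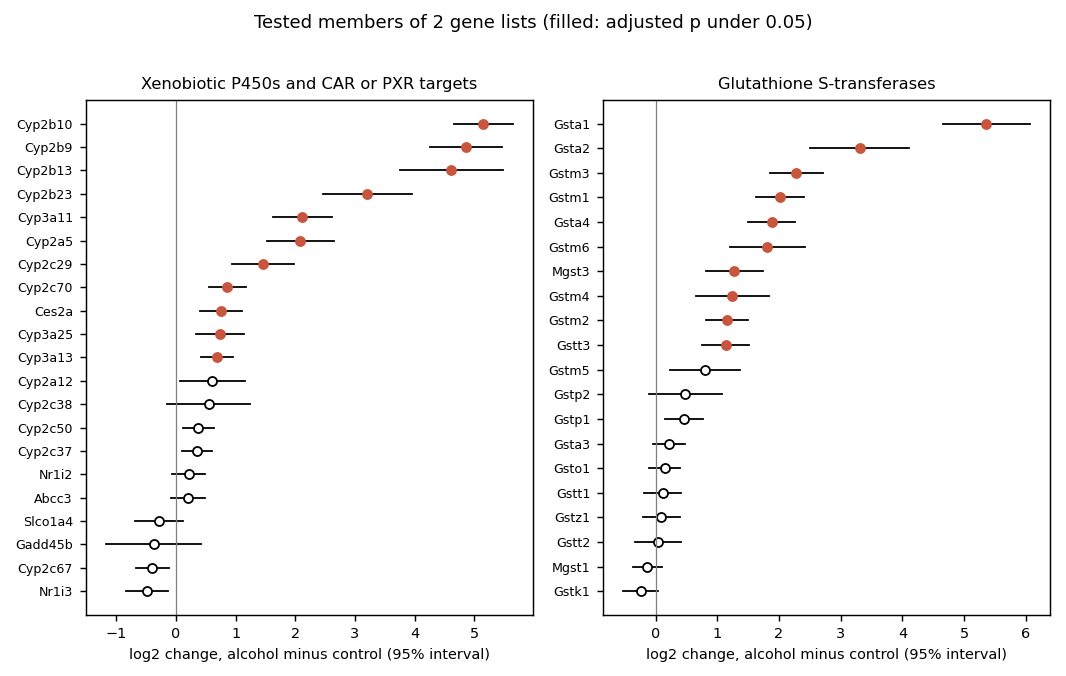
Log2 change (alcohol minus control) with its 95% interval for the 21 tested xenobiotic P450s and CAR or PXR targets (left) and the 20 tested glutathione S-transferases (right), filled where the adjusted p was under 0.05. In the left list 11 genes rose and in the right list 10, while some genes that did not pass, such as Gstm5 at 0.80, lie as far from 0 as some that did; values of genes undetected on control arrays (Cyp2b10, Cyp2b13, Cyp2b23, Gstm3) depend on the background level there.

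Glutathione S-transferases, which join glutathione to electrophiles, formed the other large group. Of 20 tested members 10 rose and none fell (50%, against 4.29% of all genes), with a median change of 0.97. Without alcohol replicate 1, 9 rose and Gstm4 passed no longer (adjusted p = 0.0605). Gsta1, of the alpha class, had 2694, 1904, 4465 and 2874 in alcohol livers and 42.3, 52.5, 88.1 and 117 in control livers, where 2 of 4 arrays detected it. Its change was 5.36 ± 0.32 (adjusted p = 7.00e-06), and the lowest alcohol value was far above the highest control value. Gsta2 had 2722, 744, 2976 and 2593 in alcohol livers and 180, 198, 195 and 234 in control livers, a change of 3.31 ± 0.36 (adjusted p = 0.000587). Alcohol replicate 2 lay below the other alcohol arrays for Gsta2, as it did for Gsta1, yet above all control arrays. Gstm1, a mu-class enzyme that is abundant in liver, had 26410, 29010, 47090 and 37160 in alcohol livers and 7589, 7845, 9619 and 8695 in control livers. It rose by 2.02 ± 0.18 (adjusted p = 0.000198). Gstm3 was undetected on control arrays and passed the filter only through the alcohol arrays. It was at least 2.59-fold higher in alcohol livers (adjusted p = 0.000198). The other members that rose were Gsta4 (1.88 ± 0.17), Gstm6 (1.81 ± 0.28, and 0.90 with an adjusted p of 0.11 on its other probe), Mgst3 (1.27 ± 0.21), Gstm4 (1.24 ± 0.27), Gstm2 (1.16 ± 0.15) and Gstt3 (1.14 ± 0.17). Pi-class Gstp1 changed by 0.46 ± 0.14 (adjusted p = 0.0908).

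The promoters of Gsta1 (chr9:78230419-78230718, plus strand) and Gsta2 (chr9:78347096-78347395, minus strand) are printed to show the most strongly raised pair of transferases side by side (RefSeq, GRCm38.p6, 5′ to 3′). Capitals mark the bases of each that differ from the other in the alignment.
Gsta1: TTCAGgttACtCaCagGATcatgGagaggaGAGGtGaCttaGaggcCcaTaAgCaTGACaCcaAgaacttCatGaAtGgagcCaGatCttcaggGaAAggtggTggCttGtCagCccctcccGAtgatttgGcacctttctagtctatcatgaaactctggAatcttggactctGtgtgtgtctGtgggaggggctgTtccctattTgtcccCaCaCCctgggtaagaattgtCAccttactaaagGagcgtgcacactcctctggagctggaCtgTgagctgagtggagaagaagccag
Gsta2: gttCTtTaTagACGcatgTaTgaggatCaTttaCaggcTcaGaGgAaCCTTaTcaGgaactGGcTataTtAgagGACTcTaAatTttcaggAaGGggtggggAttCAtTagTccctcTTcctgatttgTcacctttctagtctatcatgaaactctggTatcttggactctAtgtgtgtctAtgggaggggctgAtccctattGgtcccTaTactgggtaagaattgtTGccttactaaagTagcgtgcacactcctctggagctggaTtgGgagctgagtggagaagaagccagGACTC
The pair shared 238 of 316 aligned positions (75.3%). The antioxidant response element core TGACNNNGC, to which NRF2 binds, was searched on both strands of this window. It was found in none of the 9 transferases that rose and have a promoter in the table, against 1066 of 6361 tested genes (16.8%), 15 of 132 that rose (11.4%) and 24 of 131 that fell (18.3%). Elements outside the window were not searched.

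Fewer calls were made among other conjugating and antioxidant genes. Of 23 tested NRF2 and antioxidant genes 2 rose and none fell (8.7%, against 4.29% of all genes), with a median of 0.15. Cbr3, a carbonyl reductase, had 422, 538, 1129 and 867 in alcohol livers and 102, 85.9, 92.4 and 111 in control livers, a change of 2.82 ± 0.26 (adjusted p = 0.000199) without overlap. Srxn1, which repairs oxidised peroxiredoxins, rose by 1.10 ± 0.16 (adjusted p = 0.0043), and its other 2 probes gave 0.75 and 0.89. Txnrd1, thioredoxin reductase, changed by 0.50 ± 0.17 (adjusted p = 0.13), and by 0.64 (adjusted p = 0.045) without alcohol replicate 1, where 4 members rose. Gclc and Gclm, the subunits of the first enzyme of glutathione synthesis, changed by 0.39 ± 0.30 and 0.15 ± 0.15, and Hmox1, heme oxygenase, by -0.14 ± 0.18, none of which passed. Nqo1, a quinone reductase, did not reach the detection filter, with detection on 3 alcohol and 0 control arrays. Among 22 genes of glucuronidation, sulfation and ester cleavage 3 rose, namely Ces2a, Ces2e (1.09 ± 0.20) and Ugt2b35 (0.85 ± 0.15), and Ugt3a1 fell by 0.64. That is 18.2% of the list, against 4.29% of all genes.

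None of 13 tested genes of ethanol and acetaldehyde oxidation passed, and their median was 0.03. Cyp2e1 had signals of 51240, 52130, 46420 and 49290 in alcohol livers and 50430, 52130, 56090 and 49290 in control livers, with groups that overlap. Its change was -0.06 with a 95% interval from -0.29 to 0.17, at a signal close to the brightest on the arrays. Adh1, the main alcohol dehydrogenase, changed by 0.30 (-0.07 to 0.68), and Aldh2, the mitochondrial acetaldehyde dehydrogenase, by -0.01 (-0.25 to 0.23). Acss2, which activates acetate, changed by 0.03 (-0.30 to 0.37). Alb, albumin, changed by 0.03 ± 0.14. Retinol is handled by related dehydrogenases. Of 17 tested retinoid genes 2 rose and 2 fell (23.5%, against 4.29% of all genes). Cyp26a1, which breaks down retinoic acid, had 478, 264, 212 and 338 in alcohol livers and 37.6, 78.5, 60.5 and 33.1 in control livers, with detection on 2 of 4 control arrays. It rose by 2.64 ± 0.30 (adjusted p = 0.000642). Dhrs4 (-0.80 ± 0.12) and Rdh9 (-0.84 ± 0.16), which interconvert retinol and retinal, fell, and Aldh1a7 rose by 0.63 ± 0.14, a call lost without alcohol replicate 1 (adjusted p = 0.06).

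Calls in bile acid and cholesterol synthesis were mostly falls. Cyp7a1, the rate-limiting enzyme of bile acid synthesis, had 83.2, 98.2, 363 and 45.5 in alcohol livers and 1104, 1349, 1515 and 3100 in control livers. It fell by 3.91 on the log2 scale (SE 0.53, adjusted p = 0.00236), was detected on 3 of 4 alcohol arrays, and did not overlap. Cyp8b1, which makes cholic acid, fell by 0.89 (adjusted p = 0.025, and adjusted p = 0.055 without alcohol replicate 1), and Cyp2c70, which makes muricholic acids, rose by 0.86 (adjusted p = 0.00735). No other gene among 22 of bile acid synthesis and transport passed, so that 13.6% of the list was called, against 4.29% of all genes. Of the 22, 14 were lower and 8 higher, and the exporter Abcb11 changed by 0.90 ± 0.25 (adjusted p = 0.0691). Of 19 tested genes of cholesterol synthesis 4 fell and none rose (21%, against 4.29% of all genes). Of the 19, 15 were lower, against 4020 of all 7756 genes, with a median of -0.40. Sqle, squalene epoxidase, had 113, 39.5, 113 and 121 in alcohol livers and 274, 332, 397 and 179 in control livers. Its change was -1.68 ± 0.35 (adjusted p = 0.0214), with detection on 3 of 4 alcohol arrays. Mvd of the mevalonate pathway was undetected on all alcohol arrays, so it passed the filter only through the control arrays. It was at least 1.34-fold lower in alcohol livers (adjusted p = 0.00468). Hsd17b7 fell by 0.60, and Msmo1 by 0.85 with an adjusted p of 0.0453 that became 0.0605 without alcohol replicate 1. Insig2, which holds the SREBP escort protein in the endoplasmic reticulum, rose by 0.82 ± 0.14 (adjusted p = 0.00892), and its other 2 probes gave 1.20 and 0.91.

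Fatty acid genes were mostly lower by small amounts. Of 38 tested targets of PPARA and genes of fatty acid oxidation 33 were lower, against 4020 of all 7756 genes, with a median of -0.36. Only Fgf21, Decr1 and Crat passed (7.89% of the list, against 4.29% of all genes). Without alcohol replicate 1 none of these 3 passed (adjusted p = 0.0563, 0.0686 and 0.0601). Creb3l3, a liver transcription factor, was then the single call among the 38, while 3.76% of all genes passed. Fgf21, a hormone of the fasting liver, had 270, 518, 147 and 463 in alcohol livers and 2177, 1159, 630 and 1388 in control livers. Its change was -1.96 ± 0.42 (adjusted p = 0.0244), and no alcohol value reached the lowest control value. Ppara itself changed by -0.36 ± 0.16, Cpt1a by -0.11 ± 0.16 and Cyp4a14 by -0.55 ± 0.25, and none passed. Of 5 tested genes of ketone body metabolism Bdh1 (-0.83 ± 0.16) and Acat1 (-0.90 ± 0.22) fell (40%, against 4.29% of all genes), and 1 gene passed without alcohol replicate 4. All 12 tested of 14 genes listed under polyunsaturated fatty acid synthesis were lower (11 under median scaling, 10 without alcohol replicate 1), against 4020 of all 7756 genes. Their median was -0.32. Of these Fads2, a desaturase, fell by 0.76 and Elovl5, an elongase, by 0.73 (16.7% of the list, against 4.29% of all genes). The lowest change, -1.49 (adjusted p = 0.104), was that of Elovl3, which is also counted among the male-biased genes below. Elovl5 had 12760, 16740, 10560 and 11860 in alcohol livers and 21160, 21160, 21410 and 20990 in control livers, a control group with hardly any spread.

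Proteins of the lipid droplet moved both ways. G0s2, which blocks the triglyceride lipase ATGL, had 1659, 1330, 1256 and 2165 in alcohol livers and 14100, 8523, 6643 and 5939 in control livers. It fell by 2.41 on the log2 scale (SE 0.26, adjusted p = 0.000497), and its groups did not overlap. Plin4, a droplet coat protein, had 864, 1308, 1086 and 822 in alcohol livers and 310, 261, 374 and 497 in control livers, and rose by 1.52 ± 0.21 (adjusted p = 0.00257). Cideb, which helps to lipidate VLDL, fell by 0.61, and Fabp1, a fatty acid-binding protein whose probe was dim here (55.7 to 88.7 in alcohol livers, 93.6 to 124 in control livers), fell by 0.76, a call lost without alcohol replicate 1 (adjusted p = 0.0581). Lpin1, a phosphatidate phosphatase of triglyceride synthesis, had 282, 543, 749 and 188 in alcohol livers and 54.7, 69.7, 49.6 and 110 in control livers. It rose by 2.50 ± 0.39 (adjusted p = 0.00548) and was the single call among 19 genes of triglyceride and phospholipid synthesis. Of 15 tested lipogenic genes Insig2 and Pklr (0.56 ± 0.12) rose (13.3%, against 4.29% of all genes), and 4 passed without alcohol replicate 4. Scd1, a desaturase, had 16280 in alcohol replicate 1 and 40020, 41890 and 41190 in the other alcohol livers, against 14050, 25360, 29200 and 16990 in control livers. Its change was 0.67 ± 0.32 (adjusted p = 0.26), and 1.00 with an adjusted p of 0.0424 without alcohol replicate 1. Srebf1 changed by 0.20 ± 0.21 and Plin2 by 0.18 ± 0.24, and neither passed. Fasn was detected on 2 alcohol and 0 control arrays and was not tested.

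**Figure D3:**
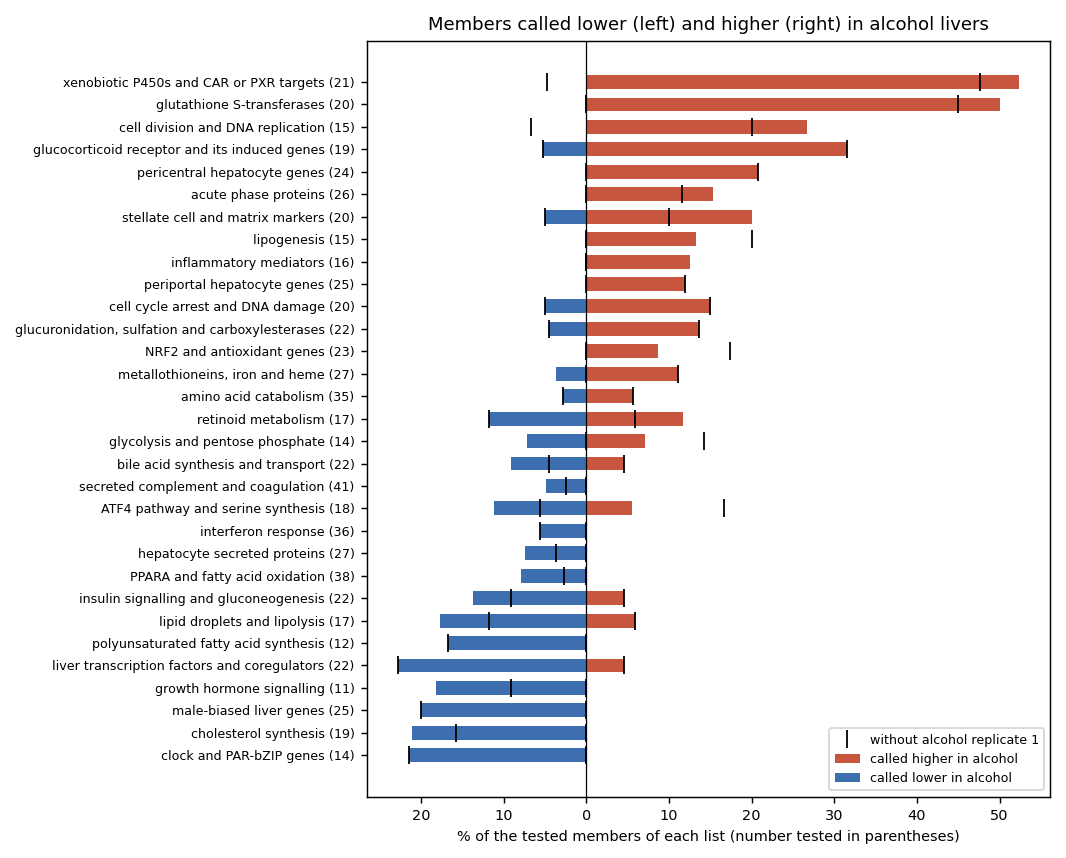
Percentage of tested members called higher (right of 0) or lower (left of 0) in alcohol livers for the lists with at least 10 tested members and at least 2 called, with the number tested in parentheses and ticks at the percentages without alcohol replicate 1. Xenobiotic P450s (52.4%) and glutathione S-transferases (50%) stand furthest right, against a background of 2.19% upward and 2.1% downward calls over all genes. Both lists include genes that passed the filter only through the alcohol arrays.

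Insulin and growth hormone genes were among the largest falls. Irs2, an adaptor of the insulin receptor, had 41.9, 121, 45.3 and 215 in alcohol livers and 413, 373, 279 and 358 in control livers. It fell by 2.07 on the log2 scale (SE 0.44, adjusted p = 0.023) and was detected on 2 of 4 alcohol arrays. Socs2, a growth hormone target that feeds back on its receptor, had 117, 306, 311 and 300 in alcohol livers and 1275, 638, 2551 and 2091 in control livers. Its change was -2.59 ± 0.42 (adjusted p = 0.00733), with no overlap. Igfals, a carrier of circulating IGF1, fell by 0.78 (adjusted p = 0.0246, and adjusted p = 0.0563 without alcohol replicate 1), whereas Igf1 (-0.25 ± 0.18) and the receptor Ghr (-0.12 ± 0.16) did not pass. Of the 11 tested growth hormone genes 2 passed (18.2%, against 4.29% of all genes). The count was 1 without alcohol replicate 1 and 1 without alcohol replicate 4. Among 22 genes of insulin signalling and gluconeogenesis, Pcx, pyruvate carboxylase, fell by 0.58 and Igfbp2 by 0.59 (adjusted p = 0.062 without alcohol replicate 1), and the glucose phosphate transporter Slc37a4 rose by 0.88 ± 0.16. With Irs2, 18.2% of this list passed, against 4.29% of all genes. Pck1, the classical gluconeogenic gene, changed by 0.43 ± 0.21 (adjusted p = 0.28).

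Genes that male mice express above females were lower in alcohol livers, and unevenly so between mice. Of 25 tested male-biased genes 23 were lower, against 4020 of all 7756 genes, with a median of -0.69. Of the 25, 5 fell (20%, against 4.29% of all genes). The called members were Cyp4a12b, a fatty acid hydroxylase, Mup21, a major urinary protein, the complement component C6, Susd4 and Cyp2u1 (detected on 3 of 4 alcohol arrays). Mup21 had 4704, 6816, 5867 and 2653 in alcohol livers and 19030, 14360, 16940 and 12670 in control livers, a change of -1.72 ± 0.26 (adjusted p = 0.0046). Cyp4a12b had 2649, 3923, 1094 and 522 in alcohol livers and 7553, 5858, 6207 and 5650 in control livers, a change of -2.01 ± 0.49 (adjusted p = 0.0443). Alcohol replicate 4 was the lowest alcohol array for 21 of the 25 genes. Hsd3b5, a male-specific steroid dehydrogenase singled out after its values were seen, had 3637, 6583, 2996 and 63.7 in alcohol livers and 14570, 11420, 11440 and 8347 in control livers. Its change of -2.94 ± 1.12 did not pass (adjusted p = 0.158), although its groups do not overlap. Serpina1e, a serpin of the same list, had 5570 in alcohol replicate 4 and 48100 to 56090 in the other alcohol livers, against 49820 to 57170 in control livers. Without alcohol replicate 4 the median of the list was -0.33, and 7 members fell and 1 rose. Of 8 tested female-biased genes Cyp2b9, Cyp2b13 and Lcn2 rose (37.5%, against 4.29% of all genes), and the median was -0.04. Without alcohol replicate 4 the same list held 3 rises and 2 falls. Only 8 of the 24 female-biased genes on the array passed the filter. Cyp2b13, undetected on control arrays, passed it only through the alcohol arrays, so the filter took part in setting this share.

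**Figure D4:**
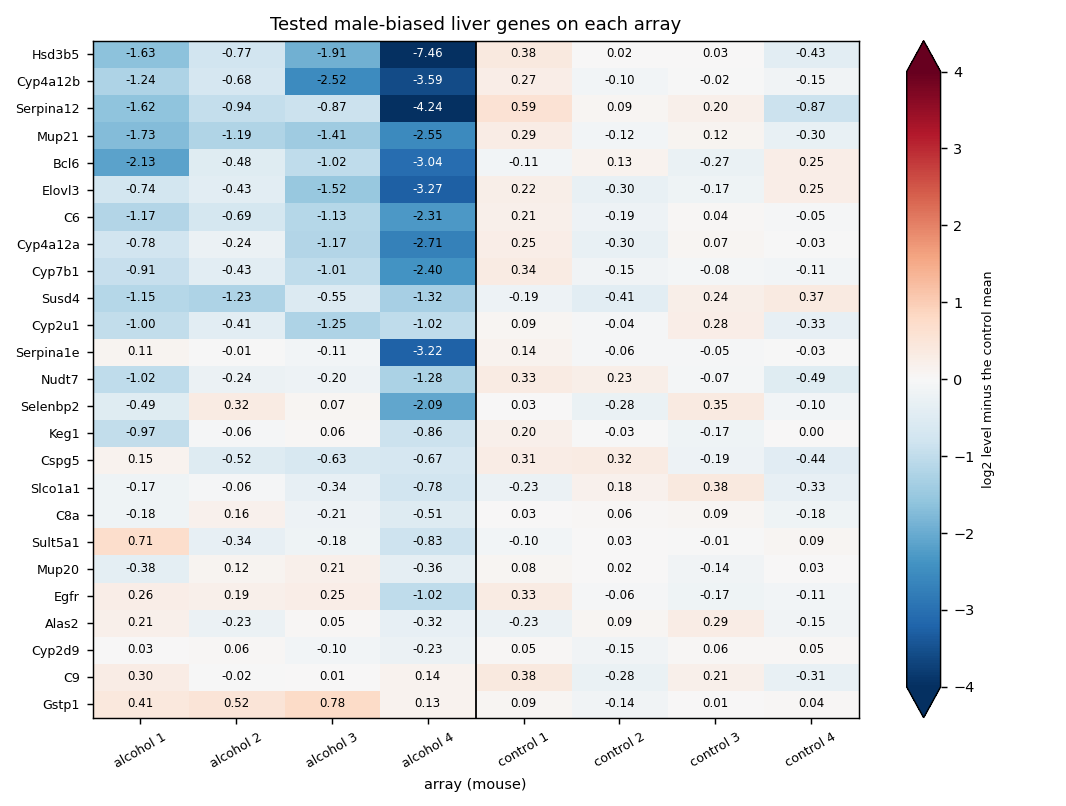
Log2 level of each tested male-biased gene on each array minus its control mean, with alcohol arrays on the left and control arrays on the right, ordered by the alcohol mean (colours saturate at 4 and -4). Alcohol replicate 4 holds the lowest values, down to -7.46 for Hsd3b5, and the other alcohol arrays lie nearer to the control mean.

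Hormone-timed genes changed in part. Of 14 tested clock and PAR-bZIP genes Dbp, Nr1d1 and Tef fell (21.4%, against 4.29% of all genes), and no other passed. Dbp, an output factor of the clock, had 3008, 2338, 3038 and 3442 in alcohol livers and 12820, 13380, 8695 and 9640 in control livers, a change of -1.90 ± 0.17 (adjusted p = 0.000199). Nr1d1, which encodes the repressor REV-ERB alpha, fell by 1.34 (SE 0.25, adjusted p = 0.0121), and Tef, a relative of Dbp, by 0.72. Per1 changed by 1.20 ± 0.43 (adjusted p = 0.135) and Per2 by -0.26 ± 0.20. Of 19 tested genes induced by the glucocorticoid receptor 6 rose and 1 fell, with and without alcohol replicate 1. That was 36.8% of the list, against 4.29% of all genes, and the median was 0.49 (0.55 without alcohol replicate 1). Tsc22d3, an anti-inflammatory leucine zipper protein, rose by 1.55 ± 0.32 (adjusted p = 0.0212), although its groups overlap. Ddit4, an inhibitor of mTORC1, had 379, 1292, 1099 and 238 in alcohol livers and 110, 85.4, 92.8 and 124 in control livers, a change of 2.55 ± 0.45 (adjusted p = 0.0106). Cdkn1a, Lpin1, Lcn2 and Mt1 made up the remaining rises of this list, and Tsc22d1 was its fall. Tat (0.49 ± 0.25) and Fkbp5 (-0.07 ± 0.27), classical receptor targets, did not pass.

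Cell cycle genes included both a brake and replication factors. Cdkn1a, which encodes the inhibitor of cyclin-dependent kinases p21, had 250, 649, 479 and 219 in alcohol livers and 42.1, 38.1, 98.8 and 55.1 in control livers, where 2 of 4 arrays detected it. Its change was 2.73 ± 0.37 (adjusted p = 0.00236), and a further probe gave 1.58. Ccng1, another p53 target, rose by 0.59 ± 0.10 on its brightest probe, whereas its other 2 probes gave -0.01 and 0.02, so that its probes disagree. Gadd45a fell by 1.45 (adjusted p = 0.0444) with groups that overlap, and by 1.39 with an adjusted p of 0.0864 without alcohol replicate 1. Of 15 tested genes of cell division and replication 4 rose (26.7%, against 4.29% of all genes). They were Mcm6 (0.88 ± 0.14), E2f1 (0.62 ± 0.11), Mcm4 (0.51 ± 0.12) and Cdc20, which no control array detected and which was at least 1.55-fold higher. Cdc20 passed the filter only through the alcohol arrays, so the filter took part in setting this share. Most dividing-cell genes were too dim to test, since 32 of the 36 listed are on the array and 15 passed the filter. Without alcohol replicate 1 Mcm4 passed no longer (adjusted p = 0.0608) and Ccnd1, cyclin D1, fell.

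Of 18 tested genes of the ATF4 pathway and serine synthesis 3 passed (16.7%, against 4.29% of all genes), with changes from -1.97 for Fgf21 to 2.55 for Ddit4. Atf4, a translation-controlled stress factor, had 1089, 1008, 1022 and 1302 in alcohol livers and 1592, 1572, 1844 and 1611 in control livers, a change of -0.59 ± 0.12 (adjusted p = 0.0212). Its targets Asns (1.57 ± 0.48, adjusted p = 0.0887) and Chac1 (1.54 ± 0.41, adjusted p = 0.0598) did not pass, and Chac1 passed without alcohol replicate 1 (1.84, adjusted p = 0.033). Of 18 tested chaperones of the endoplasmic reticulum only Pdia3 passed, a fall of 0.61 (adjusted p = 0.0481), which is 5.56% against 4.29% of all genes. Among 34 proteasome subunits 30 were higher (29 under median scaling), against 3736 of all 7756 genes, with a median of 0.21. A single member passed, Psmd14 at 0.51 ± 0.13 (adjusted p = 0.0466), which is 2.94% against 4.29% of all genes. Without alcohol replicate 1 it passed no longer (adjusted p = 0.0783), and the subunits Psmc6 (0.59) and Psmd11 (0.59) rose, and none passed without alcohol replicate 4. No call was made among 41 subunits of oxidative phosphorylation, 58 cytosolic ribosomal protein genes or 69 mitochondrial ribosomal protein genes, with medians of -0.07, -0.01 and -0.11. At an unadjusted p under 0.05, 1636 of all 7756 genes differed.

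Immune genes held calls in both directions. Of 36 tested interferon response genes 32 were lower, against 4020 of all 7756 genes, with a median of -0.23. Rsad2, an antiviral enzyme, and Irf9, a subunit of the interferon-activated transcription factor, fell (5.56% of the list, against 4.29% of all genes). Rsad2 had 398, 531, 486 and 371 in alcohol livers and 939, 1084, 961 and 758 in control livers, a change of -1.07 ± 0.15 (adjusted p = 0.00336). Irf9 fell by 0.69 on its brightest probe and by 1.20 on the other, both past the test, and 4 members passed without alcohol replicate 4. Among 26 tested acute phase genes 4 rose (15.4%, against 4.29% of all genes). Lcn2, an iron-scavenging lipocalin also made by neutrophils, had 780, 414, 1138 and 1143 in alcohol livers and 221, 172, 256 and 250 in control livers, a change of 1.86 ± 0.29 (adjusted p = 0.00521). Saa2 (1.02 ± 0.15) and Saa4 (0.90 ± 0.18), serum amyloids, and Lbp, which binds bacterial lipopolysaccharide (0.66 ± 0.15, and adjusted p = 0.0601 without alcohol replicate 1), completed the list. The summed signal of 13 neutrophil markers was 955 to 1771 in alcohol livers and 652 to 806 in control livers. Lcn2 is among these 13 and made up most of the difference, and 6 others were detected on no array. Lcn2 was the only called gene of the 6 tested, and the part of neutrophils in its rise was not tested. In whole-tissue RNA, a change in the number of cells of a type and a change in RNA per cell cannot be told apart.

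Metal and heme genes and the zones of the lobule were also touched. Slc39a4, a zinc importer, had 1777, 2110, 2000 and 2176 in alcohol livers and 995, 846, 825 and 924 in control livers, a change of 1.17 ± 0.12 (adjusted p = 0.000352). Mt1, a zinc-binding metallothionein, rose by 1.36 ± 0.28 (adjusted p = 0.0208), and Mt2 changed by 1.92 ± 0.51 (adjusted p = 0.0593). Blvrb, biliverdin reductase B, rose by 0.60, and Cpox of heme synthesis fell by 0.61 (adjusted p = 0.0605 without alcohol replicate 1, and -0.44 with an adjusted p of 0.209 on its other probe). Of 24 tested pericentral genes 5 rose (20.8%) and of 25 periportal genes 3 (12%), against 4.29% of all genes. None fell, and the counts were the same without alcohol replicate 1. Rhbg, a pericentral ammonia transporter, had 592, 430, 428 and 550 in alcohol livers and 206, 143, 195 and 171 in control livers, a change of 1.48 ± 0.16 (adjusted p = 0.000474). Glul, glutamine synthetase, rose by 0.87 and the glutamate transporter Slc1a2 by 0.68, both pericentral, as did Cyp2a5 and Cyp1a2. The periportal rises were Ass1 of the urea cycle (0.84), Etnppl (1.28) and Hal (0.62), which breaks down histidine. Prodh, proline dehydrogenase, rose by 0.95 and Agxt, which clears glyoxylate, fell by 0.65.

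Transcription factors of the hepatocyte were lower more often than higher. Of 22 tested factors and coregulators 16 were lower, against 4020 of all 7756 genes. Of the 22, 5 fell and 1 rose (27.3%, against 4.29% of all genes). The same split of calls was found without alcohol replicate 1. Tsc22d1, a regulator linked to transforming growth factor beta, had 285, 212, 169 and 176 in alcohol livers and 2297, 2170, 1572 and 920 in control livers. It fell by 2.99 on the log2 scale (SE 0.27, adjusted p = 0.000199), the largest fall after that of Cyp7a1 among called genes. Cebpa, a factor of hepatocyte differentiation, had 493, 774, 548 and 811 in alcohol livers and 1010, 1439, 1569 and 1082 in control livers, a change of -0.97 ± 0.20 (adjusted p = 0.0208). Prox1 fell by 0.89 and the coactivator Ppargc1b by 0.75. Other large changes had no list in common: the cytolinker Ppl (1.92 ± 0.20, detected on 1 of 4 control arrays, and 0.19 with an adjusted p of 0.677 on its other probe) and Adam11 (at least 2.58-fold, undetected on control arrays) rose, while Nrep (3.99-fold lower), Dct (-1.93 ± 0.29), the laminin chain Lamb3 (-1.62 ± 0.19), Pcsk4 (-1.53 ± 0.17), Slc17a8 (-1.52 ± 0.33), Paqr9 (-1.47 ± 0.24) and the WNT receptor Fzd8 (-1.38 ± 0.21) fell. All 3 other probes of Pcsk4 fell too (-1.67, -1.69 and -1.04), and so did both other probes of Paqr9 (-1.58 and -1.57). Slc17a8 did not pass without alcohol replicate 1 (adjusted p = 0.0601). Fzd8 was detected on 2 of 4 alcohol arrays and Dct on 3 of 4, so the size of these 2 falls depends on the background level.

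Among markers of other liver cells, those of stellate cells and matrix held the most calls. Of 20 tested, 4 rose and 1 fell (25% of the list, against 4.29% of all genes). Without alcohol replicate 1, which holds pancreatic RNA, 2 rose and 1 fell. Col3a1, a fibrillar collagen, had 140, 156, 270 and 174 in alcohol livers and 90.0, 64.0, 80.8 and 104 in control livers, a change of 1.10 ± 0.21 (adjusted p = 0.0146, and adjusted p = 0.0159 without that array). Sparc rose by 1.10 ± 0.25 with its highest value, 576, on alcohol replicate 1, and by 0.86 (adjusted p = 0.0481) without it. Its other probe gave 0.42 (adjusted p = 0.238), so the probes of Sparc disagree. Col6a1 (0.76) and Col5a1 (0.52) passed no longer without it (adjusted p = 0.0914 and 0.0852). Reln fell by 0.58. Lyve1 of sinusoidal endothelium rose by 0.73 ± 0.17 (adjusted p = 0.0357). None of 17 tested Kupffer cell markers passed, with a median of 0.24, and their summed signal was 27100 to 32180 in alcohol livers and 23780 to 25930 in control livers. Red cell markers summed to 17070 to 28500 in alcohol livers and 29760 to 31840 in control livers, and adipocyte markers to 10620 to 13370 in alcohol livers and 14220 to 17190 in control livers. Car3, an adipocyte marker that hepatocytes also express, made up most of the adipocyte sum. It had 8294 to 10450 in alcohol livers and 12170 to 14740 in control livers. Car3 fell by 0.51, a call lost without alcohol replicate 1 (adjusted p = 0.0703). Of the 5 tested adipocyte markers 3 were higher and 2 lower in alcohol livers, with a median of 0.29.

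The shift of whole lists can be followed mouse by mouse. The median glutathione S-transferase lay 0.94, 0.64, 1.24 and 0.78 log2 units above the control mean in alcohol mice, and within 0.09 of it in each control mouse. Male-biased genes lay at -0.74, -0.24, -0.34 and -1.28 in alcohol mice. Alcohol replicate 2, with the smallest shift of male-biased and PPARA genes (-0.24 and -0.10), had the largest for cholesterol synthesis (-0.66), so the mice were not ordered alike on every list. Over all genes the medians lay between -0.05 and 0.03 in alcohol mice and between -0.01 and 0.01 in control mice.

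**Figure D5:**
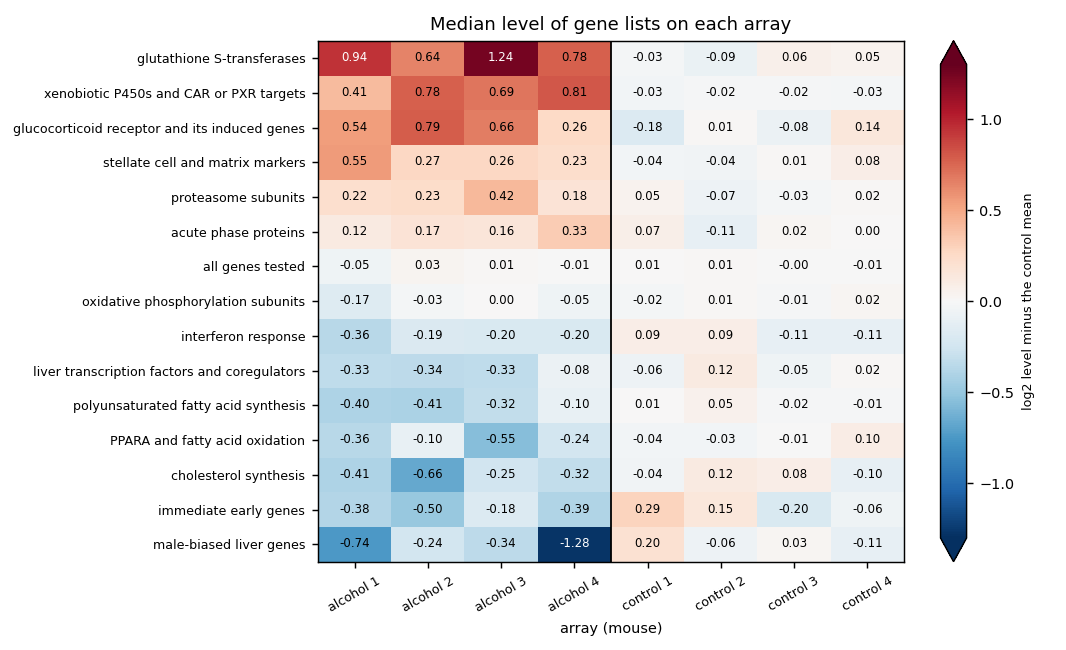
Median over the tested members of each list of the log2 level minus the control mean, for each array, with alcohol arrays on the left and control arrays on the right. Lists at the top are above the control mean in all 4 alcohol mice (glutathione S-transferases at 0.64 to 1.24), and lists at the bottom are below it in all 4 (male-biased genes at -1.28 to -0.24).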

How the data were processed

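Total RNA from frozen liver (500 ng per mouse, biotin-labelled) was read on 1-colour Illumina BeadChips, per the labels' protocols. Each array's deposited intensity column lists 25697 probes before normalization, beside a detection p-value for every probe, per the file headers. The authors' processed intensity table was used as an alternative; how it was made is not stated in these sources. The submitters' processing notes name GenomeStudio, lumi and limma, with no version. Signals were background-corrected, quantile-normalized on the 8 arrays and taken to log2 with limma 3.58.1 (R 4.3.3; neqc, offset 16, negative controls inferred from detection p-values). The platform annotation gave 1 symbol for 23978 probes and none for 1719 (647 unnamed probes passed the filter), and 23962 matched RefSeq by gene ID. The brightest passing probe stood for a gene (1909 genes had several). The fit had 2 group means, 6 residual degrees of freedom and two-sided tests; the median SE was 0.143. The number of arrays limits the precision. The code was tested on simulated data. A fold against a group with no detection is a lower bound, taken against that group's detection limit or its own value where higher.

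Members and lists were chosen with earlier results of these data known. Named genes are the 20 largest rises and 20 largest falls among called genes (adjusted p under 0.05) that every array of the group with the higher level detected, without provisional names, up to 4 called members of each list by p, and 21 liver genes whatever their values. Other genes were named after their values were seen. Of the 21, Nqo1 and Fasn missed the filter and 2 are not analysed here. The main fit did not pair the mice by replicate number. Correlations of same-numbered deviations were 0.242, 0.0976, 0.0185 and 0.0464, and those of differently numbered ones were -0.180 to 0.0780.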

Additional observations from a re-analysis of the deposited data

Results flagged for a closer look

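Among 302 groups of 4 arrays (151 named genes in each diet), 13 held 1 array whose gap to the nearest other, relative to the range of the group, was above Dixon's 95% critical value for 4 samples; chance flags about 1 group in 20. Of these 8 were alcohol and 5 control groups. All values are normalized log2 levels. In alcohol livers, replicate 1 was low for Socs2 (6.87, others 8.23 to 8.28) and for Scd1 (13.99, others 15.29 to 15.35). Alcohol replicate 2 was low for Gsta2 (9.54, others 11.34 to 11.54) and for Sqle (5.30, others 6.82 to 6.92), and high for Fabp1 (6.47) and for the histone H2ac18 (10.36). Alcohol replicate 3 was low for Crat (7.19), and alcohol replicate 4 was high for Irf9 (8.75). In control livers, replicate 1 was high for Cyp2b23 (5.03), a gene undetected on all control arrays, replicate 2 was high for Ces2a (6.46), replicate 3 was high for Ppl (5.75) and Atf4 (10.85), and replicate 4 was low for Ppargc1b (8.59).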

How the results depend on the processing

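The 333 calls were recomputed under other processing settings, and none changed sign in the settings that tested it as a gene. Other probes of called genes had the opposite sign in 4 of 112 cases. Of the 333, 100 passed in every setting that tested them, which was 17 to 20 settings a gene. Without any detection filter 16593 genes were tested and 202 passed (108 up, 94 down), and array weights gave 579 (293 up, 286 down). Leaving out 1 array at a time gave 147 to 625 calls (88 to 318 up, 59 to 307 down) and 73 to 126 calls of at least 2-fold, against 91. With normalization and filter redone on 7 arrays without alcohol replicate 1, 268 passed. The remaining alternatives gave 281 (median scaling) to 461 calls (every probe tested, of 10938). The replicate number as a block gave 417 calls (222 up, 195 down), 300 of them shared with the 333. Each alcohol array correlated best with its own number, though for alcohol replicate 4 this was 0.0464 against 0.0459 with control replicate 2. Control replicates 3 and 4 correlated best with alcohol replicate 2 (0.0297 and 0.0780). These values come from the data and not the design, and whether mice were paired by number was not tested. Over the 126 genes named by rule, 2133 values kept their side of the threshold, 356 lost it and 2 gained it. The causes were not tested. Dim probes limit folds: genes undetected in 1 group have only bounds.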

Other observations

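Several gene families outside the lists above, chosen after their values were seen, also held calls. Of 14 tested tubulin genes, the subunits of microtubules, 5 rose and none fell, with or without alcohol replicate 1. That is 35.7%, against 4.29% of all genes with every array in the fit. Tubb6 had signals of 886, 771, 909 and 840 in alcohol livers and 354, 353, 438 and 395 in control livers, a change of 1.15 ± 0.12 (adjusted p = 0.00038). Tubb2b had 1943, 1441, 1533 and 1868 in alcohol livers and 810, 548, 760 and 893 in control livers, a change of 1.18 ± 0.17 (adjusted p = 0.00311). Tuba8 (1.24 ± 0.17), Tubb4b (1.03 ± 0.14) and Tuba1b (0.72 ± 0.14) rose as well, and so did Stmn1, which binds free tubulin (0.91 ± 0.15, detected on 2 of 4 control arrays). Tubulin genes are alike in sequence, so that probes may not separate them. Prc1, which bundles spindle microtubules, was undetected on control arrays and at least 2.11-fold higher (adjusted p = 0.00952).

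Of 4 tested inhibin beta genes, whose products form activins and inhibins, 3 fell (75%, against 4.29% of all genes). Inhbe, a liver-made member, had 473, 316, 380 and 442 in alcohol livers and 1169, 864, 795 and 684 in control livers, a change of -1.11 ± 0.18 (adjusted p = 0.00684), and Inhbc and Inhba fell by 0.85 and 0.80. Of 39 tested histone genes 4 fell and none rose (10.3%, against 4.29% of all genes). The 4 were H2ac18, H2ac20, H2ac21 and H4c8, with falls of 0.90, 0.70, 0.93 and 0.88, and histone genes have near-identical copies. Without alcohol replicate 1, 3 fell and H2ac20 passed no longer (adjusted p = 0.062). Of 164 tested solute carriers 10 rose and 1 fell (6.71%, against 4.29% of all genes). Without alcohol replicate 1, 7 passed, while 3.76% of all genes did. Single genes chosen after their values were seen also rose: Fmo5, a flavin monooxygenase (1.37 ± 0.16), Mlkl, the executor of necroptosis (1.38 ± 0.25), and Lgals1, a galectin (1.34 ± 0.15). Hsd17b6, a steroid dehydrogenase, fell by 1.29. Nupr1, a stress-induced nuclear protein, did not pass (adjusted p = 0.305). It had 2100 on alcohol replicate 1, the array with pancreatic RNA, against 75.7 to 96.5 on the other alcohol arrays and 46.1 to 74.9 on control arrays. Whether pancreatic RNA gave this signal was not tested.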
